A study of Arabidopsis thaliana with 14 samples.

Results

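Transcript levels in roots of gir, a mutant line of Arabidopsis thaliana, were compared with those in roots of the wild-type accession Col-7, both taken from plates holding 4% glucose. The 3 arrays titled as gir roots and the 3 titled as Col-7 roots were used, 6 of the 14 arrays of the study, and the other 8 were of inflorescences of both lines. Plants of both root groups were 21 days old, and whole roots had been cut off for RNA. The study's design text gives 11 days without glucose followed by 10 days at 4% glucose. The protocol of the samples gives 7 days on a first plate and no times for the plates after it, so the length of the glucose treatment is not settled. The mutant is called gir in the labels and gir1 in the design text, and neither names an allele, a promoter or a transgene. All 6 root samples were on glucose, so the values below are differences between genotypes on glucose and not responses to it. No table used here ties the mutated gene to a locus, and its level was not analysed here. The labels do not say whether replicates came from separate plants or plates, so the spread behind each p-value is that between these samples and may be technical in part.

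A root lengthens by dividing cells near its tip and by stretching them behind it. Stretching needs the cell wall to give way: expansins loosen the contacts between cellulose and other wall polymers, endoglucanases and xyloglucan endotransglucosylases cut or rejoin glucans, and peroxidases and lignin stiffen the wall as growth ends. Microtubules under the membrane guide the laying down of cellulose and so the direction of growth. Glucose is both fuel and signal in Arabidopsis, and high amounts of it are known to slow the growth of seedlings.

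Of 13799 probe sets tested, 1636 (11.9%) passed the threshold of 0.05 for the adjusted p in gir against Col-7 roots, 758 higher in gir (5.49%) and 878 lower in gir (6.36%). Values are microarray intensities, tested with limma as log2(intensity + 26) and adjusted by Benjamini-Hochberg over all probe sets tested. Changes are gir minus Col-7 on that scale with their standard errors (SE), and levels are linear intensities, given array by array in the order of the replicate numbers (n = 3 each). The 3 gir and 3 Col-7 arrays did not overlap in 4533 of the 13799 probe sets (32.9%), which hold all 1636 called and 2897 that did not pass, so a lack of overlap alone does not mark a call. Most changes were small: the median size among them was 0.43, and 28 rose and 22 fell by 1 or more on the log2 scale. Median centring of the arrays turned the balance to 1037 higher and 690 lower, so that 60% of the calls were higher in place of 46.3%. Fewer calls were made without gir replicate 1 (878), gir replicate 2 (819) or Col-7 replicate 2 (1043), in a joint fit with the inflorescences (707) and with no filter on dim probe sets (616).

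Arrays of one genotype correlated at 0.989 to 0.993 across probe sets, and arrays of different genotypes at 0.978 to 0.982. The root hair markers EXPA7 and EXPA18, the only 2 of 22 listed root hair genes with a probe set named here, averaged 10.16 to 10.22 (log2 intensity) in gir roots and 9.91 to 9.99 in Col-7 roots, against 5.25 to 6.16 in inflorescences. The gap between the root groups was that of EXPA7 (0.44), since EXPA18 was at 0.04 with overlapping groups. Green tissue markers (8 genes) averaged 9.38 to 9.52 in gir roots and 9.43 to 9.48 in Col-7 roots, and 12.13 to 12.61 in inflorescences. Markers listed for endodermis, xylem, phloem, root cap and meristem had no probe set named here, so shifts among those cells were not measured. In whole roots, fewer cells of a type and less RNA per cell cannot be told apart. Control signals differed between genotypes: the 25S ribosomal RNA probe set read 390 to 774 in gir roots and 865 to 1270 in Col-7 roots. In the newer of 2 control designs, actin's 3' to 5' ratio averaged 1.67 ± 0.0622 over gir arrays and 1.49 ± 0.0832 over Col-7 arrays (SD, n = 3 each), without overlap, and in the older design the groups overlapped. The part of these differences in the results below was not tested.

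To describe gene classes, 51 classes of wall, growth, transport and metabolism were drawn up by gene symbol. They hold 823 genes with a probe set, of which 543 passed the filter on low values, and 54 of those rose and 54 fell in gir. Of these calls 6 rises (CYP718, AGL19, BGLU45, CLE27, NGA2 and SDH1-2) passed the filter through the gir arrays alone and 2 falls (EXPB2 and BGLU24) through the Col-7 arrays alone, so they could enter only as a rise or as a fall. Among the 85 wall genes that passed the filter, 9 rose and 18 fell, with a median change of -0.04. Of 233 growth genes 18 rose and 16 fell (median 0.02), of 38 transport genes 1 rose and 3 fell (median -0.01), and of 199 metabolism genes 26 rose and 17 fell (median 0.03). The median over all probe sets tested was -0.01. In 11 classes no gene passed limma's test: the 94 genes tested in them lay between -0.62 and 0.32, and 12 had an unadjusted p below 0.05. The classes were drawn up with earlier results of these data known, so their share of calls, 19.9% of the 543, is no evidence of a difference from the 11.9% over all probe sets. The same holds for the share of calls in each class below.

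**Figure D1:**
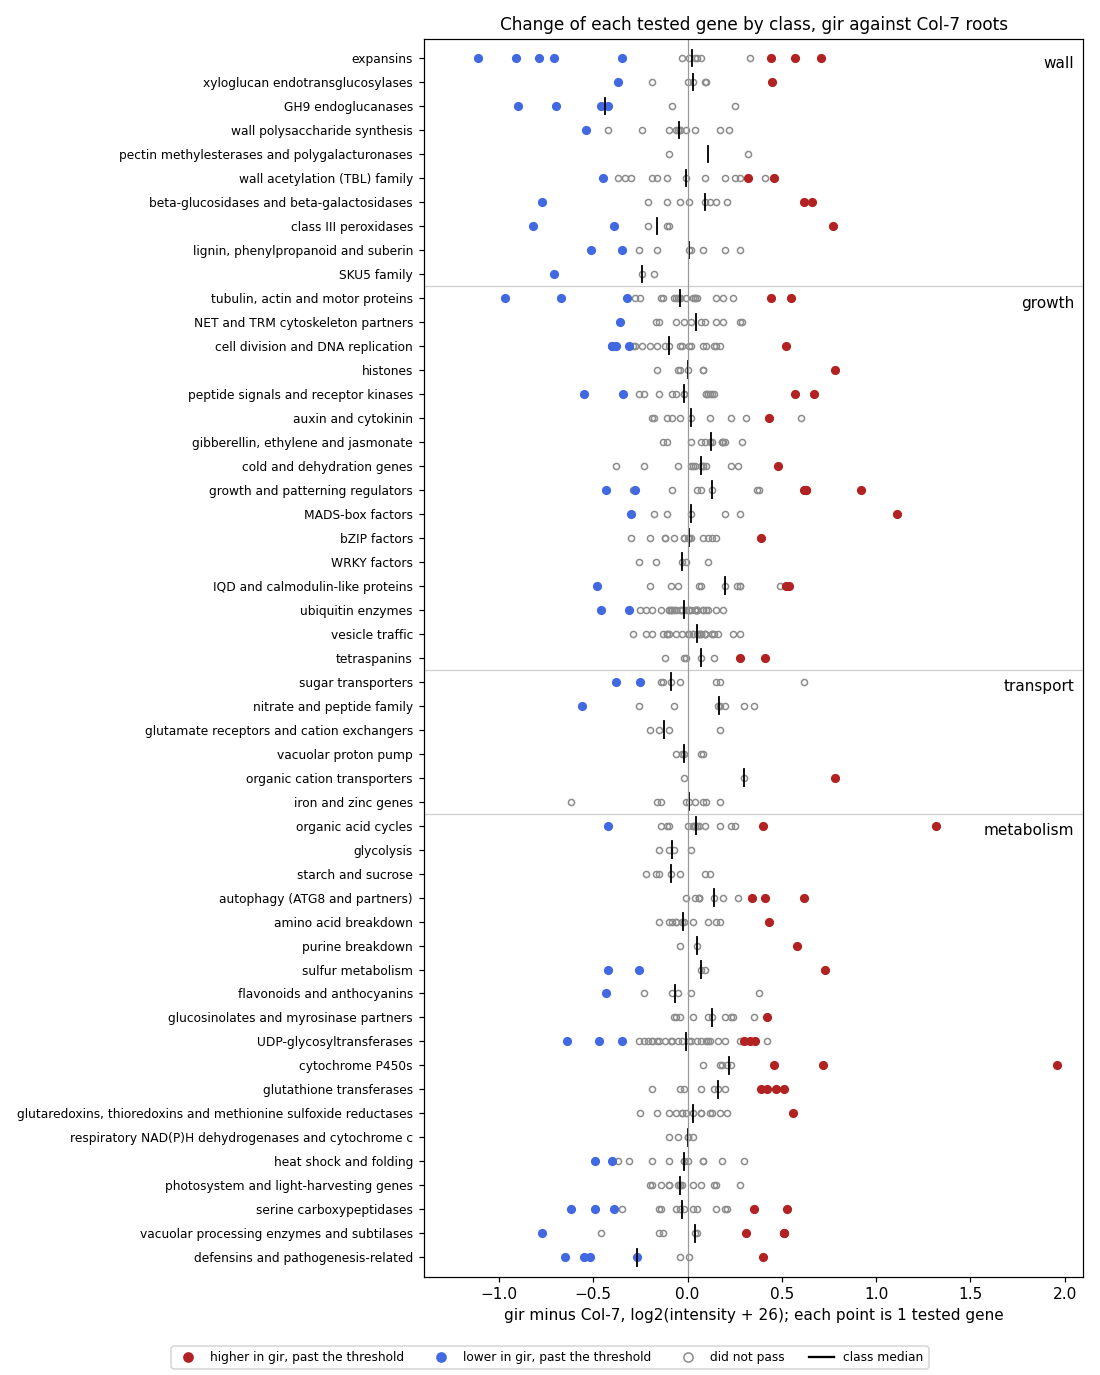
Change of each tested gene (gir minus Col-7 roots, log2 scale, horizontal axis) in 51 gene classes (rows), with genes past the threshold filled, the others open and the class median as a black bar. Expansins spread from -1.11 to 0.71 around a median of 0.02, whereas the GH9 endoglucanases have their median at -0.44.

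Expansin genes moved in both directions in gir roots. Of 14 that passed the filter, of 19 with a probe set, 5 fell and 3 rose, and the median change was 0.02. EXPA15, an alpha-expansin, had intensities of 1712, 1739 and 1773 in gir roots, against 3517, 3832 and 4007 in Col-7 roots, a change of -1.11 ± 0.07 (adjusted p = 0.00026). All gir arrays read lower than all Col-7 arrays, with less spread among them. EXPA4 read 4420, 4531 and 4698 in gir roots, against 7480, 7025 and 7843 in Col-7 roots (-0.71 ± 0.07, adjusted p = 0.0012). The beta-expansin EXPB3 read 2120, 2057 and 1918 in gir roots, against 3522, 3392 and 3680 in Col-7 roots (-0.79 ± 0.07, adjusted p = 0.00074). A second beta-expansin, EXPB2, was dim: 109, 85.2 and 95.1 in gir roots, all below the 40th percentile of their arrays, against 244, 213 and 160 in Col-7 roots (-0.91 ± 0.14, adjusted p = 0.0047). The change of EXPB2 was -0.63 at its smallest among the alternatives. EXLB1, an expansin-like gene, fell less (-0.35 ± 0.08, adjusted p = 0.025).

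The expansins that rose were alpha-expansins. EXPA9 read 1547, 1430 and 1402 in gir roots, against 831, 892 and 930 in Col-7 roots, a change of 0.71 ± 0.08 (adjusted p = 0.0014). EXPA8 read 722, 674 and 737 in gir roots, against 467, 460 and 484 in Col-7 roots (0.57 ± 0.07, adjusted p = 0.0022). EXPA7 and EXPA18 both serve root hairs, yet EXPA7 rose, at 970, 1013 and 1039 in gir roots, against 715, 752 and 744 in Col-7 roots (0.44 ± 0.07, adjusted p = 0.0052), and EXPA18 was at 0.04. The 6 expansin genes that did not pass lay between -0.03 and 0.33. EXPA15, EXPA4 and EXPA9 kept their calls under each alternative. EXPB2 kept its call where tested, but it could enter only as a fall and the stricter filter did not test it. A joint fit of all 14 arrays, whose spread includes the inflorescences, ended the calls of EXPB3, EXPA8, EXPA7 and EXLB1 (adjusted p = 0.12, 0.061, 0.37 and 0.25). EXLB1 also lost its call without gir replicate 1, gir replicate 2, Col-7 replicate 2 or Col-7 replicate 3 (adjusted p = 0.084, 0.059, 0.075 and 0.051) and with no filter on dim probe sets (0.087).

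**Figure D2:**
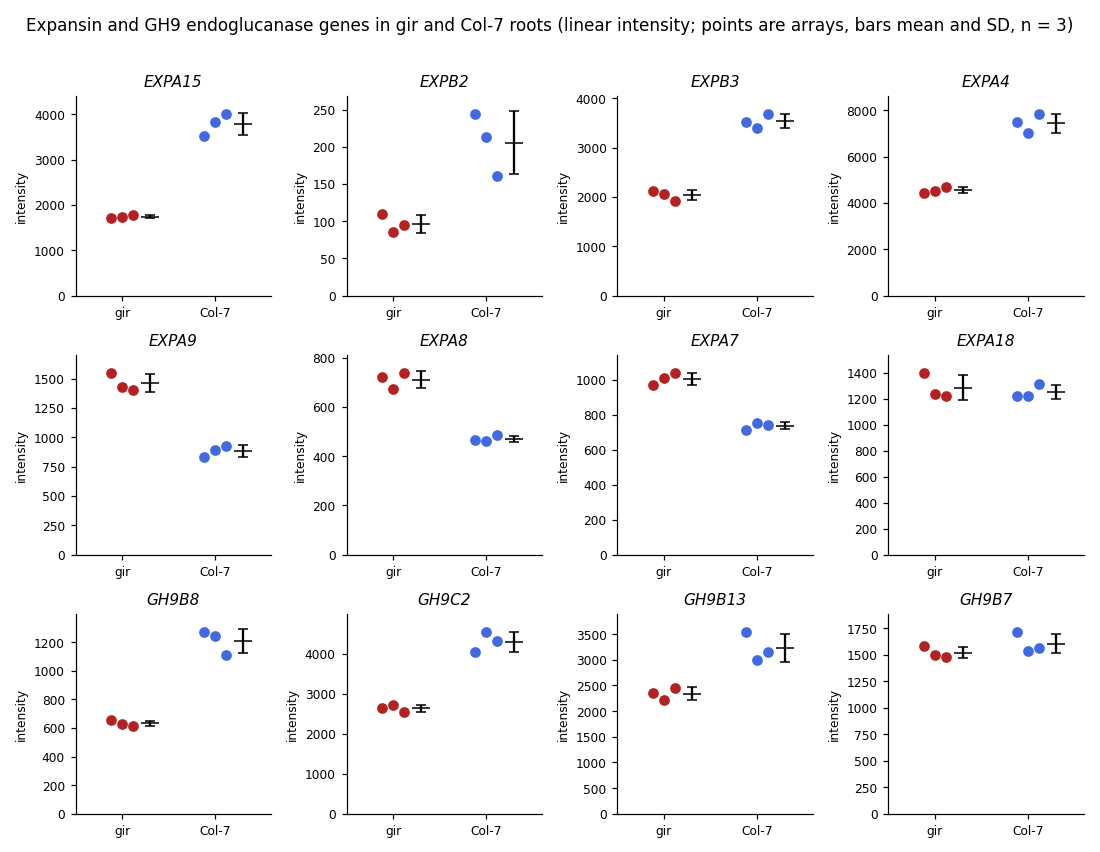
Linear intensity (vertical axes) of expansin and GH9 endoglucanase genes in the 3 gir and 3 Col-7 root arrays (points), with mean and SD as black bars. EXPA15, EXPB2, EXPB3, EXPA4, GH9B8, GH9C2 and GH9B13 are lower in every gir array, EXPA9, EXPA8 and EXPA7 are higher in every gir array, and EXPA18 and GH9B7 overlap.

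The GH9 family of endo-beta-1,4-glucanases, which trim cellulose and related glucans, gave falls only: of 6 genes that passed the filter, of 15 with a probe set, 4 fell and none rose. These calls are 66.7% of the 6, against 11.9% called over all probe sets, in a class drawn up with earlier results known. GH9B8 read 653, 625 and 617 in gir roots, against 1269, 1244 and 1109 in Col-7 roots, a change of -0.90 ± 0.08 (adjusted p = 0.00052). GH9C2 read 2642, 2727 and 2553 in gir roots, against 4037, 4537 and 4319 in Col-7 roots (-0.70 ± 0.07, adjusted p = 0.0013). Both genes kept their calls under each alternative that tested them. GH9B13 read 2352, 2215 and 2455 in gir roots, against 3534, 2997 and 3148 in Col-7 roots (-0.46 ± 0.08, adjusted p = 0.011, and 0.058 with no filter on dim probe sets). GH9A3 changed by -0.42 ± 0.10 (adjusted p = 0.026), a call that ended in the joint fit (0.05), with no filter (0.098) and without gir replicate 1, gir replicate 2, Col-7 replicate 2 or Col-7 replicate 3 (0.09, 0.084, 0.074 and 0.071). GH9B7 at -0.08 and GH9C1 at 0.25 did not pass.

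Of 7 xyloglucan endotransglucosylase genes, XTH19 rose (2823, 2873 and 3188 in gir roots, against 2264, 2282 and 1934 in Col-7 roots, 0.45 ± 0.09, adjusted p = 0.015) and XTH32 fell (-0.37 ± 0.09, adjusted p = 0.03). Of 12 genes for making wall polysaccharides only IRX15-L, which acts in xylan synthesis, passed: 389, 377 and 377 in gir roots, against 572, 558 and 570 in Col-7 roots (-0.54 ± 0.06, adjusted p = 0.002). Its relative IRX15 was at -0.42 with overlapping groups (adjusted p = 0.089). COB, which orients cellulose deposition in root cells, was at 0.04, and CSLD2, a cellulose synthase-like gene of root hairs, at -0.01. The TBL family, whose members acetylate wall polymers, gave 1 fall and 2 rises among 15 genes: TBL36 (-0.45 ± 0.08, adjusted p = 0.01), TBL39 (0.32 ± 0.07, adjusted p = 0.019) and TBL21 (0.46 ± 0.10, adjusted p = 0.024). The class of pectin methylesterases and polygalacturonases gave no call in 2 tested genes, PMEPCRF at 0.32 ± 0.09 (adjusted p = 0.051) and ATPMEPCRB at -0.10 ± 0.13. Of 7 genes of that class with a probe set only these 2 passed the filter. Genes known by their locus alone may lie outside it, so pectin enzymes as a group were not covered. The joint fit ended the calls of XTH19, XTH32, IRX15-L and TBL21 (adjusted p = 0.25, 0.08, 0.11 and 0.062), and dropping the filter ended those of XTH19, XTH32, TBL36, TBL39 and TBL21 (0.069, 0.1, 0.054, 0.072 and 0.092). XTH32 lost its call without gir replicate 1 or 2 or Col-7 replicate 1 or 2 (0.1, 0.09, 0.085 and 0.091) and with the replicate block (0.066), TBL21 without the same 4 arrays (0.076, 0.082, 0.07 and 0.055), and TBL39 without gir replicate 1, gir replicate 3 or Col-7 replicate 2 (0.062, 0.061 and 0.055).

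Among wall oxidases and lignin genes, 3 of 6 tested class III peroxidases and 2 of 9 lignin, phenylpropanoid and suberin genes changed. Only 7 genes matched the peroxidase class by symbol, so its counts need not stand for the whole family. PRX52, a peroxidase of lignification, read 433, 479 and 458 in gir roots, against 725, 823 and 933 in Col-7 roots, a change of -0.82 ± 0.10 (adjusted p = 0.002). PRX71 went the other way, at 886, 992 and 898 in gir roots, against 510, 469 and 628 in Col-7 roots (0.77 ± 0.11, adjusted p = 0.0036). PRX72 fell (-0.39 ± 0.07, adjusted p = 0.0092), and the 3 other peroxidases lay between -0.21 and -0.10. CCR2 (AT1G80820), a cinnamoyl-CoA reductase of monolignol synthesis, read 441, 506 and 468 in gir roots, against 703, 664 and 684 in Col-7 roots (-0.51 ± 0.07, adjusted p = 0.004). FACT, which joins caffeic acid to fatty alcohols of suberin waxes, fell by 0.35 (SE 0.07, adjusted p = 0.02). HCT and ALDH2C4 of the phenylpropanoid route were at 0.01 and 0.02. In the joint fit the calls of PRX71, PRX72, CCR2 and FACT ended (adjusted p = 0.22, 0.064, 0.35 and 0.089). FACT lost its call without gir replicate 1, gir replicate 2, Col-7 replicate 1 or Col-7 replicate 3 too (0.075, 0.058, 0.057 and 0.053), and with no filter (0.077).

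The SKU5 family, named for a gene of directional root growth, had 3 tested genes, all with negative changes, of which sks15 passed: 257, 229 and 283 in gir roots, against 403, 433 and 474 in Col-7 roots (-0.71 ± 0.09, adjusted p = 0.0028). SKU5 itself was at -0.18 ± 0.08 (adjusted p = 0.2) and sks16 at -0.24 ± 0.07 (adjusted p = 0.056). Of 11 beta-glucosidase genes, BGLU24 fell (71.7, 67.1 and 72.9 in gir roots, all below the 40th percentile of their arrays, against 132, 154 and 131 in Col-7 roots, -0.77 ± 0.08, adjusted p = 0.0012, with a change of -0.49 at a pseudocount of 100). BGLU45, known to release monolignols from their glucosides, rose, at 164, 152 and 160 in gir roots, against 81.6, 88.1 and 103 in Col-7 roots, with all 3 Col-7 arrays below that percentile (0.66 ± 0.08, adjusted p = 0.0025). The change of BGLU45 was 0.44 at its smallest among the alternatives. BGLU28, which sulfur shortage induces, rose by 0.62 ± 0.11 (adjusted p = 0.01). The abundant root enzyme PYK10 read 17299 to 20158 in gir roots and 18407 to 19832 in Col-7 roots. BGLU45 and BGLU28 lost their calls in the joint fit (adjusted p = 0.086 and 0.47), and BGLU28 with no filter (0.061).

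Regulators of growth and patterning gave 4 rises and 2 falls among 13 tested genes (46.2% called, against 11.9% over all probe sets), with a median of 0.13. UPB1, a bHLH factor that sets the balance of reactive oxygen species where cells leave division, read 531, 508 and 529 in gir roots, against 249, 254 and 288 in Col-7 roots, a change of 0.92 ± 0.08 (adjusted p = 0.00051). ARL, an ARGOS-like gene of cell expansion, read 797, 879 and 694 in gir roots, against 525, 533 and 441 in Col-7 roots (0.63 ± 0.11, adjusted p = 0.0075). ATMYC1, a bHLH factor of epidermal patterning, read 211, 205 and 186 in gir roots, against 126, 126 and 112 in Col-7 roots (0.62 ± 0.08, adjusted p = 0.0024). These 3 rises held under each alternative that tested them. In the same class NGA2 rose (0.63 ± 0.13, adjusted p = 0.02) while OPS, an early gene of the phloem, and QKY, a gene of tissue shape, fell (-0.43 ± 0.10 and -0.28 ± 0.08, adjusted p = 0.023 and 0.047). JKD, which patterns the ground tissue, was at 0.37 (adjusted p = 0.13).

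Calls of NGA2, OPS and QKY were not stable. NGA2, whose Col-7 arrays all lay below their 40th percentile, lost its call with no filter (adjusted p = 0.085) and without gir replicate 1, gir replicate 3 or Col-7 replicate 1 (0.07, 0.058 and 0.053), and its change was 0.40 with a pseudocount of 100. OPS lost it with no filter (0.09), with the replicate block (0.057) and without gir replicate 1, gir replicate 2 or Col-7 replicate 2 (0.065, 0.087 and 0.06). QKY lost it in the joint fit (0.051), after median centring (0.088) or quantile normalization (0.053), with no filter (0.13), with the replicate block (0.068), and without gir replicate 1, 2 or 3 or Col-7 replicate 2 or 3 (0.13, 0.15, 0.067, 0.12 and 0.12).

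**Figure D3:**
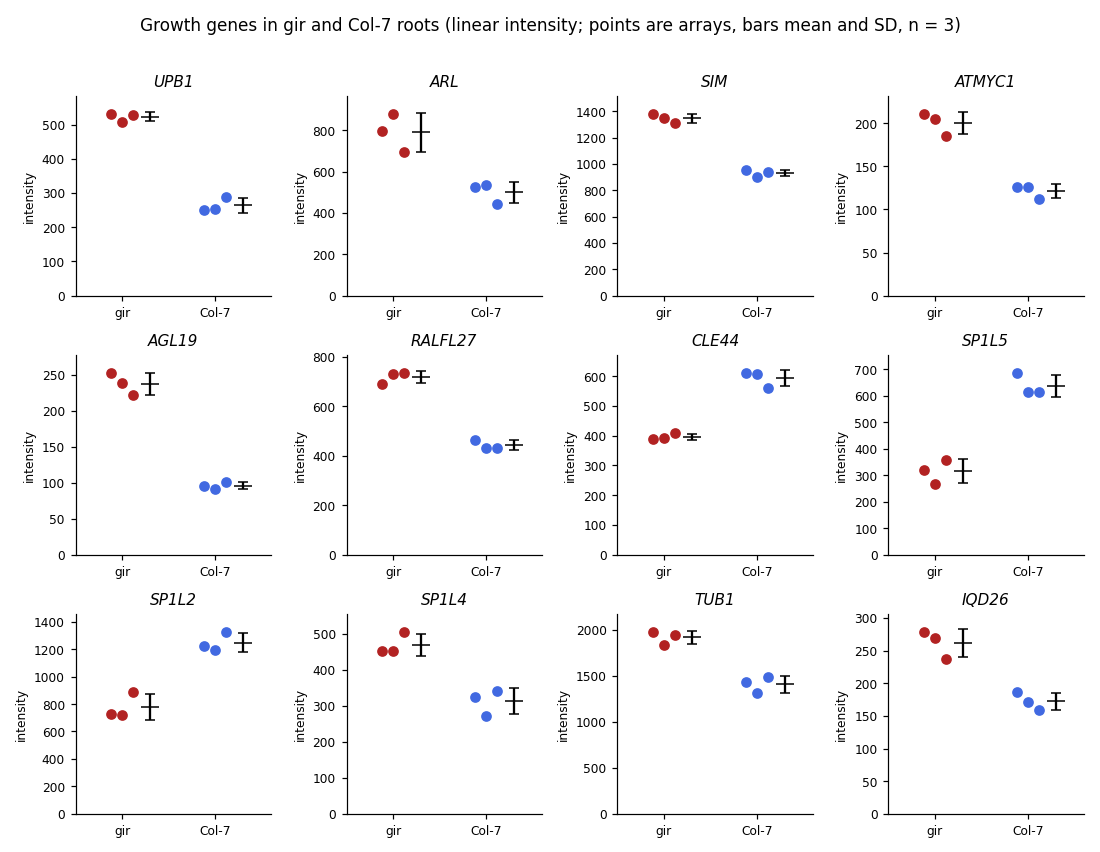
Linear intensity (vertical axes) of growth genes in the 3 gir and 3 Col-7 root arrays (points), with mean and SD as black bars. UPB1, ARL, SIM, ATMYC1, AGL19, RALFL27, SP1L4, TUB1 and IQD26 are higher in every gir array, and CLE44, SP1L5 and SP1L2 are lower in every gir array.

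Cell division and DNA replication genes gave 1 rise and 4 falls among 21 tested genes, with a median of -0.10. SIM, an inhibitor of cyclin-dependent kinases that favours endoreduplication, read 1380, 1348 and 1315 in gir roots, against 951, 902 and 940 in Col-7 roots (0.52 ± 0.07, adjusted p = 0.0026), and this call held under each alternative that tested it. The falls were of FU, a kinase needed for cytokinesis, with 297, 323 and 353 in gir roots, against 422, 436 and 429 in Col-7 roots (-0.38 ± 0.08, adjusted p = 0.017), of the mitotic chromosome protein 3xHMG-box2 (-0.40 ± 0.08, adjusted p = 0.017), of the spindle checkpoint gene BUB3.1 (-0.40 ± 0.09, adjusted p = 0.024) and of the mitotic kinase AUR3 (-0.31 ± 0.07, adjusted p = 0.021). A second probe set of FU fell too (-0.62 ± 0.10, adjusted p = 0.0063). AUR1 and AUR2 were at -0.29 and -0.12. Among 7 histone genes HIS1-3, a linker histone known to respond to drought, rose, at 611, 594 and 441 in gir roots, against 265, 286 and 377 in Col-7 roots (0.78 ± 0.15, adjusted p = 0.014), while the core histone genes HTB4 and HTB11 were at 0.08 and 0.00. The calls of these falls (for FU, of the first probe set given) and of HIS1-3 did not hold when some single arrays were left out. Without gir replicate 1 or 2 the calls ended of FU (adjusted p = 0.064 and 0.061), 3xHMG-box2 (0.052 and 0.059), BUB3.1 (0.065 and 0.066), AUR3 (0.072 and 0.081) and HIS1-3 (0.052 and 0.053). Without Col-7 replicate 2 those of FU (0.052), BUB3.1 (0.073) and AUR3 (0.058) ended, without Col-7 replicate 3 those of BUB3.1 (0.066) and AUR3 (0.05), and without gir replicate 3 that of BUB3.1 (0.07). Dropping the filter ended all 5 calls (0.071 to 0.09), the joint fit all but that of AUR3 (0.098 to 0.12), and limma's trend and robust options that of AUR3 (0.069).

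Of 23 tubulin, actin and motor protein genes 2 rose and 3 fell, 3 of these 5 in the SPIRAL1-like family. SP1L proteins bind microtubules and help to keep root cells growing straight. SP1L5 read 320, 266 and 357 in gir roots, against 685, 612 and 615 in Col-7 roots, a change of -0.97 ± 0.11 (adjusted p = 0.0014). SP1L2 read 730, 718 and 886 in gir roots, against 1226, 1191 and 1323 in Col-7 roots (-0.67 ± 0.09, adjusted p = 0.0037). SP1L4 moved the opposite way, at 451, 451 and 504 in gir roots, against 325, 272 and 341 in Col-7 roots (0.55 ± 0.10, adjusted p = 0.0083). SP1L3 was at 0.04 and SPR1, the founding member, at 0.19, neither past the threshold. The beta-tubulin TUB1 rose, at 1972, 1838 and 1945 in gir roots, against 1428, 1309 and 1487 in Col-7 roots (0.44 ± 0.08, adjusted p = 0.0081), whereas TUB5, TUB6, TUB7, TUB9, TUA1 and TUA6 lay between -0.28 and 0.24 and did not pass. TRM15, of a family that recruits proteins to microtubules, fell by 0.36 (SE 0.07, adjusted p = 0.012). The kinesin KINESIN-12B changed by -0.32 ± 0.08 (adjusted p = 0.037) and lost its call in 11 of 16 alternatives, among them the fits without gir replicate 1, 2 or 3 or Col-7 replicate 1 or 2 (0.063, 0.13, 0.093, 0.093 and 0.076). SP1L5 and SP1L2 kept their calls under each alternative that tested them. SP1L4 lost its call with no filter (0.051), TUB1 in the joint fit (0.14), and TRM15 in both (0.054 and 0.11).

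Among calmodulin-binding IQD proteins, which sit on microtubules, IQD26 read 278, 270 and 237 in gir roots, against 186, 171 and 159 in Col-7 roots (0.54 ± 0.09, adjusted p = 0.0058). IQD19 rose by 0.52 ± 0.09 (adjusted p = 0.0068), and both calls held under each alternative that tested them. IQD23 fell by 0.48 (SE 0.10, adjusted p = 0.018), with the call lost without gir replicate 1, gir replicate 3 or Col-7 replicate 3 (0.068, 0.055 and 0.053) and with no filter (0.08). The other 10 tested genes of the IQD and calmodulin-like class lay between -0.20 and 0.49.

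Peptide signals gave 2 rises and 2 falls among 17 tested genes. RALFL27, of the RALF peptides that restrain cell expansion through FER-type receptor kinases, read 689, 731 and 734 in gir roots, against 465, 431 and 431 in Col-7 roots (0.67 ± 0.07, adjusted p = 0.0013). CLE44, whose peptide holds vascular stem cells undifferentiated, read 387, 392 and 408 in gir roots, against 610, 608 and 561 in Col-7 roots (-0.55 ± 0.07, adjusted p = 0.0024). These calls held under each alternative that tested them. CLE41, which encodes the same peptide, was at -0.06. CLE27 rose by 0.57 ± 0.10 (adjusted p = 0.0084, and 0.052 with no filter) and had all its Col-7 arrays below their 40th percentile, with a change of 0.35 at a pseudocount of 100. RALFL32 changed by -0.34 ± 0.07 (adjusted p = 0.017) and lost its call without gir replicate 1 or 2 (0.065 and 0.071) and with no filter (0.068). The receptor kinases FER and THE1, which watch over wall integrity, were at -0.08 and 0.12 and did not pass.

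Hormone genes gave 1 call, with partial coverage. Of 71 auxin and cytokinin genes matched by symbol, 28 had a probe set named here and 11 passed the filter. None of 12 tested genes for gibberellin, ethylene and jasmonate passed, with changes from -0.13 to 0.29: EIN3, the central ethylene factor, was at 0.18 ± 0.07 (adjusted p = 0.16), and GID1A, a gibberellin receptor, at -0.13 ± 0.07 (adjusted p = 0.3). Of 11 auxin and cytokinin genes AZG1, a purine transporter, rose (304, 345 and 292 in gir roots, against 228, 231 and 217 in Col-7 roots, 0.43 ± 0.08, adjusted p = 0.011, and 0.057 with no filter). GH3.3, an auxin-conjugating enzyme, was at 0.60 ± 0.17 with an adjusted p of 0.052 and overlapping groups. Of 42 MADS-box genes with a probe set 7 passed the filter. Among these AGL19, known as a promoter of flowering, rose, at 252, 238 and 221 in gir roots, against 95.5, 90.8 and 101 in Col-7 roots, where all 3 arrays lay below their 40th percentile (1.11 ± 0.08, adjusted p = 0.00026). Its change was 0.78 at its smallest among the alternatives. AGL21, of lateral roots, changed by -0.30 ± 0.08 (adjusted p = 0.038) and lost its call in 9 of 16 alternatives, among them those without gir replicate 1 or 2 or any 1 Col-7 replicate (0.06 to 0.13).

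The 5 tested WRKY factors (-0.26 to 0.11) and 27 genes of vesicle traffic (-0.29 to 0.28) gave no call. Of 68 WRKY genes matched by symbol only 7 had a probe set named here, so most of that family was not examined. Of 30 ubiquitin enzymes UBC29 fell (897, 903 and 973 in gir roots, against 1349, 1263 and 1237 in Col-7 roots, -0.46 ± 0.07, adjusted p = 0.0054) and kept its call under each alternative that tested it. UBC20 changed by -0.31 ± 0.08 (adjusted p = 0.037), a call lost without any 1 of the 6 arrays (0.051 to 0.12), with the replicate block (0.056), in the joint fit (0.059), after median centring (0.059) and with no filter (0.11). Of 7 tetraspanins, which organise membranes, TET2 rose by 0.41 ± 0.08 (adjusted p = 0.017, but 0.064 and 0.057 without gir replicate 1 or 2 and 0.072 with no filter). TET3 was at 0.28 ± 0.07 (adjusted p = 0.035) and lost its call without gir replicate 1, 2 or 3 or Col-7 replicate 2 or 3 (0.099, 0.089, 0.093, 0.1 and 0.08), with the replicate block (0.065), in the joint fit (0.47) and with no filter (0.1).

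Of 16 bZIP factors BZIP61 rose by 0.39 ± 0.10 (adjusted p = 0.041), a call lost without gir replicate 1, 2 or 3 or Col-7 replicate 1 or 3 (0.11, 0.099, 0.095, 0.08 and 0.083), with the replicate block (0.062), in the joint fit (0.17) and with no filter (0.13). BZIP53 and bZIP44, factors tied to sugar shortage and translation control by sucrose, were at 0.08 and 0.11. Of 13 cold and dehydration genes COR27, a cold gene tied to the clock, rose by 0.48 ± 0.11 (adjusted p = 0.023), and lost its call without gir replicate 2, Col-7 replicate 1 or Col-7 replicate 2 (0.058, 0.066 and 0.067), in the joint fit (0.28) and with no filter (0.09). LTI30, a dehydrin, was at 0.02 and COR15A, a chloroplast cold protein, at -0.38 (adjusted p = 0.083).

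Transport genes gave 4 calls among 38 tested, 10.5% against the 11.9% over all probe sets. OCT1, an organic cation and carnitine transporter, read 583, 614 and 620 in gir roots, against 405, 309 and 314 in Col-7 roots (0.78 ± 0.10, adjusted p = 0.0028, and 0.11 in the joint fit). NPF4.4, of the nitrate and peptide transporter family, fell, at 148, 117 and 133 in gir roots, against 212, 205 and 205 in Col-7 roots (-0.56 ± 0.08, adjusted p = 0.0047, and 0.1 in the joint fit). The sugar transporters SWEET13, of sucrose export, and SWEET17, a vacuolar fructose carrier, fell by 0.38 and 0.25 (SE 0.10 and 0.07, adjusted p = 0.039 and 0.04). Neither of these calls was stable: without gir replicate 1 or 2 the adjusted p was 0.12 and 0.13 for SWEET13 and 0.12 and 0.13 for SWEET17, and without Col-7 replicate 1 or 2 it was 0.1 and 0.083 for SWEET13 and 0.075 and 0.11 for SWEET17. SWEET17 also lost its call without gir replicate 3 (0.08) or Col-7 replicate 3 (0.065). The 2 falls ended too in the joint fit (0.25 for SWEET13 and 0.34 for SWEET17), with no filter (0.12 and 0.11), with the replicate block (0.078 and 0.083) and after median centring (0.069 and 0.083), and that of SWEET13 after quantile normalization (0.054).

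SWEET11, a sucrose exporter, had overlapping groups, with 387, 300 and 240 in gir roots, against 118, 225 and 246 in Col-7 roots (0.62 ± 0.24, adjusted p = 0.13). The tonoplast sugar carriers TMT1 and TMT2 were at -0.14 and -0.13. No call was made among 5 subunits of the vacuolar proton pump (-0.06 to 0.08), 4 glutamate receptors and cation exchangers (-0.20 to 0.17) or 9 iron and zinc genes. Of the last class ZIP6, a metal transporter of the ZIP family, was farthest from 0, with 287, 191 and 144 in gir roots, against 306, 318 and 340 in Col-7 roots (-0.62 ± 0.19, adjusted p = 0.066). Its groups did not overlap, but the gir arrays spread widely.

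In central carbon metabolism 3 of 16 genes of organic acid cycles passed, with ICL the largest rise. ICL, isocitrate lyase of the glyoxylate cycle, read 622, 644 and 685 in gir roots, against 254, 250 and 230 in Col-7 roots (1.32 ± 0.07, adjusted p = 0.00017), a call that held under each alternative that tested it. Of the 15 other tested genes of organic acid cycles, SDH1-2, a succinate dehydrogenase subunit, rose by 0.40 ± 0.11 (adjusted p = 0.045) and NADP-MDH, a plastid malate dehydrogenase, read 494, 514 and 580 in gir roots, against 694, 763 and 688 in Col-7 roots (-0.42 ± 0.08, adjusted p = 0.015). SDH1-2 was above the 40th percentile on no Col-7 array and lost its call without gir replicate 1 or 2 (0.096 and 0.11), without Col-7 replicate 1, 2 or 3 (0.11, 0.096 and 0.098) and in 5 further alternatives (0.053 to 0.25), with a change of 0.26 at a pseudocount of 100. NADP-MDH lost its call without gir replicate 1, gir replicate 2 or Col-7 replicate 2 (0.062, 0.061 and 0.051) and with no filter (0.069). The 13 genes that did not pass, among them subunits of isocitrate dehydrogenase, ATP citrate lyase and succinate dehydrogenase, lay between -0.14 and 0.25.

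None of 4 glycolysis genes passed (-0.15 to 0.02), nor of 7 starch and sucrose genes (-0.22 to 0.12), nor of 5 genes of respiratory NAD(P)H dehydrogenases and cytochrome c (-0.10 to 0.03). GAPC2, a cytosolic glyceraldehyde-3-phosphate dehydrogenase, read 15570 to 18312 in gir roots and 17153 to 18384 in Col-7 roots, and TPI, triose phosphate isomerase, was at -0.07 ± 0.07. AT5G26570, listed under the symbol PWD and the phosphoglucan water dikinase of starch breakdown, was at -0.17 ± 0.09 (adjusted p = 0.25). The 14 photosystem and light-harvesting genes gave no call either (-0.20 to 0.28).

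ATG8 proteins are small ubiquitin-like proteins of the autophagosome membrane, and of 11 tested ATG8 and partner genes 3 rose, none fell and the median was 0.14. ATG8E read 796, 790 and 749 in gir roots, against 559, 442 and 493 in Col-7 roots (0.62 ± 0.09, adjusted p = 0.0041). ATG8H read 1087, 1067 and 1114 in gir roots, against 851, 748 and 842 in Col-7 roots (0.41 ± 0.08, adjusted p = 0.011). ATG8F read 3748, 3881 and 3794 in gir roots, against 3051, 3083 and 2866 in Col-7 roots (0.34 ± 0.07, adjusted p = 0.015). The 8 other genes lay between -0.01 and 0.27. In the joint fit the 3 calls ended (adjusted p = 0.089 for ATG8E, 0.11 for ATG8H and 0.23 for ATG8F), those of ATG8H and ATG8F ended with no filter (0.054 and 0.062), and that of ATG8F without gir replicate 2 (0.061).

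Among vacuolar processing enzymes and subtilases, proteases of the vacuole and wall, 3 of 9 rose and 1 fell. SBT3.5 read 431, 459 and 431 in gir roots, against 310, 290 and 307 in Col-7 roots (0.51 ± 0.07, adjusted p = 0.0032, and 0.052 in the joint fit). ATSBT5.2 read 366, 461 and 504 in gir roots, against 710, 781 and 819 in Col-7 roots (-0.77 ± 0.12, adjusted p = 0.0045), a call that held under each alternative that tested it. ALPHA-VPE rose by 0.51 ± 0.11 (adjusted p = 0.021, but 0.071 and 0.077 without gir replicate 1 or 2 and 0.088 with no filter). GAMMA-VPE rose by 0.31 ± 0.08 (adjusted p = 0.032) and lost its call without gir replicate 1 or 2 or Col-7 replicate 1, 2 or 3 (0.086, 0.12, 0.083, 0.075 and 0.058), in the joint fit (0.058), with the replicate block (0.06) and with no filter (0.1). Of 16 serine carboxypeptidases 3 fell and 2 rose. SCPL45 (974, 1052 and 1097 in gir roots, against 1517, 1455 and 1458 in Col-7 roots, -0.49 ± 0.07, adjusted p = 0.0042) kept its call under each alternative that tested it, and scpl40 (0.53 ± 0.08, adjusted p = 0.005) lost it in the joint fit alone (0.089). The other 3 calls were not stable, and without gir replicate 1 all 3 ended: scpl31 (-0.62 ± 0.16, adjusted p = 0.039, and 0.12 without that array), scpl35 (-0.39 ± 0.09, adjusted p = 0.027, and 0.082) and SCPL34 (0.35 ± 0.07, adjusted p = 0.02, and 0.069). Without gir replicate 2 scpl31 (0.053) and SCPL34 (0.061) lost their calls, without gir replicate 3 scpl31 (0.093), scpl35 (0.065) and SCPL34 (0.057), without Col-7 replicate 1 scpl31 (0.099), scpl35 (0.053) and SCPL34 (0.058), without Col-7 replicate 2 scpl35 (0.071) and SCPL34 (0.061), and without Col-7 replicate 3 scpl31 (0.1) and scpl35 (0.073). In the joint fit and with no filter the 3 were at 0.078 to 0.3, and scpl31 was at 0.082 with the replicate block.

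Of 3 purine breakdown genes 1 rose, and of 5 sulfur genes 1 rose and 2 fell. ALN, the allantoinase of purine breakdown, read 452, 548 and 551 in gir roots, against 337, 299 and 379 in Col-7 roots (0.58 ± 0.11, adjusted p = 0.011, and 0.063 with no filter), while AAH, a later enzyme of that route, was at -0.04. MGL, methionine gamma-lyase, was the 1 gene of 12 in amino acid breakdown that passed (413, 438 and 405 in gir roots, against 274, 308 and 332 in Col-7 roots, 0.43 ± 0.08, adjusted p = 0.014). It lost its call without gir replicate 2 (0.057), in the joint fit (0.071) and with no filter (0.065). STR18, a sulfurtransferase, read 2773, 2735 and 2986 in gir roots, against 1638, 1735 and 1720 in Col-7 roots (0.73 ± 0.07, adjusted p = 0.00087), and its call held under each alternative that tested it. The sulfate assimilation genes APS4, an ATP sulfurylase, and SIR, sulfite reductase, fell by 0.42 and 0.26 (SE 0.10 and 0.06, adjusted p = 0.026 and 0.033). APS4 lost its call without gir replicate 1, Col-7 replicate 2 or Col-7 replicate 3 (0.071, 0.072 and 0.074), in the joint fit (0.088) and with no filter (0.096), and SIR without any 1 of the 6 arrays (0.065 to 0.11) and in 4 further alternatives (0.069 to 0.13).

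**Figure D4:**
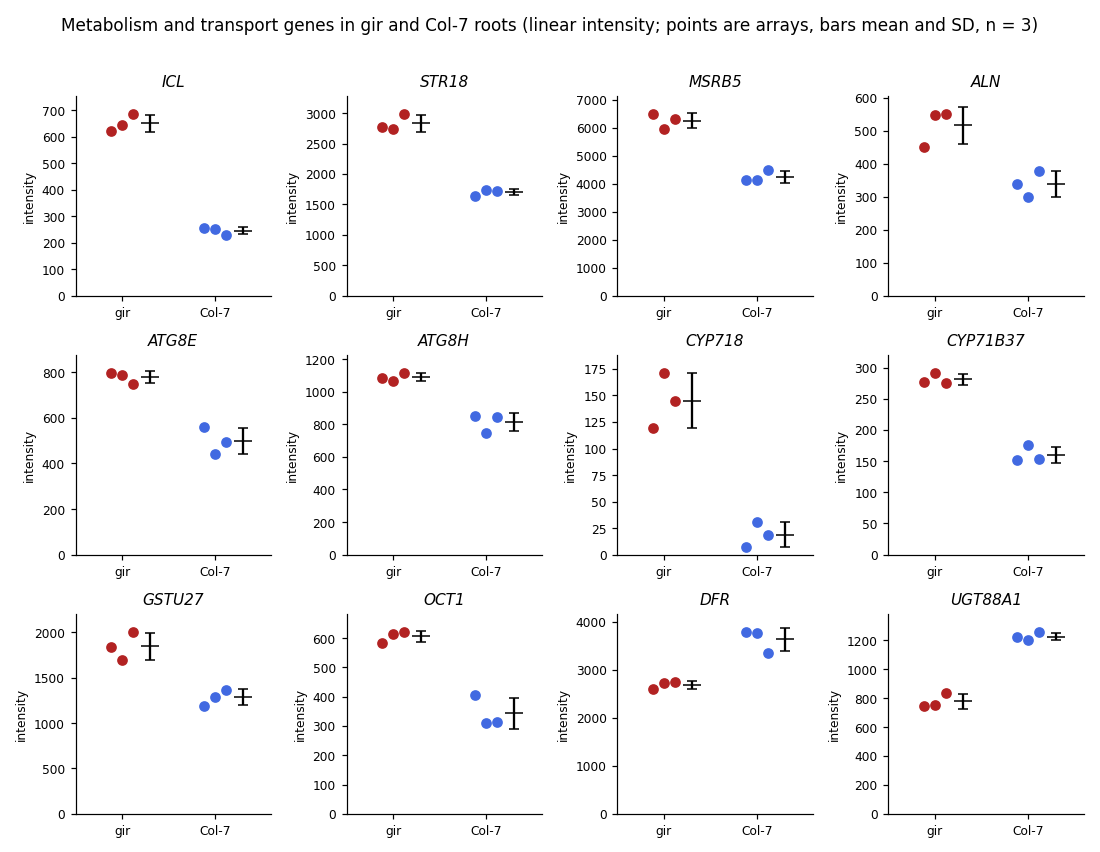
Linear intensity (vertical axes) of metabolism and transport genes in the 3 gir and 3 Col-7 root arrays (points), with mean and SD as black bars. DFR and UGT88A1 are lower in every gir array, and ICL, STR18, MSRB5, ALN, ATG8E, ATG8H, CYP718, CYP71B37, GSTU27 and OCT1 are higher in every gir array.

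Of 23 cytochrome P450 genes with a probe set 8 passed the filter and 3 of those rose, 1 of them CYP718, which passed the filter through the gir arrays alone. CYP718 read 119, 171 and 145 in gir roots, against 6.77, 30.9 and 18.8 in Col-7 roots (1.96 ± 0.19, adjusted p = 0.00087). Its size rests on dim Col-7 signals and is not settled, since it was 1.04 with a pseudocount of 100 and 2.61 with one of 8. CYP71B37 read 277, 291 and 275 in gir roots, against 151, 175 and 154 in Col-7 roots (0.72 ± 0.08, adjusted p = 0.0013), and CYP71B23 rose by 0.46 ± 0.08 (adjusted p = 0.0085, and 0.58 in the joint fit). Of 11 glutathione transferases, which tag electrophiles with glutathione, 4 rose and none fell (36.4% called, against 11.9% over all probe sets). GSTU27 read 1837, 1699 and 2002 in gir roots, against 1194, 1290 and 1370 in Col-7 roots (0.51 ± 0.09, adjusted p = 0.0076), and its call, like that of CYP71B37, held under each alternative that tested it. CYP718 kept its call too, but it could enter only as a rise. Neither the stricter filter nor the filter on the mean tested CYP718, so its kept call is no support.

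The other glutathione transferases that rose were GSTU28 (0.47 ± 0.11, adjusted p = 0.03), ATGSTF13 (0.42 ± 0.09, adjusted p = 0.02) and GSTU26 (0.39 ± 0.08, adjusted p = 0.016). GSTU28 lost its call without gir replicate 1 or 2 or Col-7 replicate 1 or 2 (0.082, 0.1, 0.069 and 0.08), ATGSTF13 without gir replicate 1, gir replicate 3 or Col-7 replicate 2 (0.073, 0.061 and 0.062), and GSTU26 without gir replicate 1 or 3 (0.064 and 0.051). In the joint fit and with no filter their adjusted p lay at 0.071 to 0.18, and for GSTU28 it was 0.053 with the replicate block. Among 15 glutaredoxins, thioredoxins and methionine sulfoxide reductases MSRB5, which repairs oxidised methionine, was the 1 that passed, at 6495, 5962 and 6302 in gir roots, against 4136, 4122 and 4479 in Col-7 roots (0.56 ± 0.07, adjusted p = 0.0028, and 0.06 in the joint fit).

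UDP-glycosyltransferases, which attach sugars to hormones and phenolics, gave 3 rises and 3 falls among 30 genes. UGT88A1 read 743, 756 and 835 in gir roots, against 1220, 1203 and 1256 in Col-7 roots (-0.64 ± 0.07, adjusted p = 0.0016), and it alone of the 6 kept its call under each alternative that tested it. Of the neighbouring genes UGT73B4 (AT2G15490) and UGT73B5 (AT2G15480), UGT73B4 was at -0.35 ± 0.08 (adjusted p = 0.021) and UGT73B5 at 0.36 ± 0.08 (adjusted p = 0.023). UGT73B4 lost its call without gir replicate 1, gir replicate 3, Col-7 replicate 1 or Col-7 replicate 2 (0.078, 0.062, 0.059 and 0.05) and with no filter (0.079). UGT73B5 lost it without gir replicate 1 or 2 or Col-7 replicate 1 or 2 (0.073, 0.087, 0.064 and 0.069), in the joint fit (0.33), with the replicate block (0.056) and with no filter (0.085). The calls of UGT84A3 (-0.47 ± 0.12, adjusted p = 0.039), UGT71C1 (0.33 ± 0.07, adjusted p = 0.023) and UGT85A2 (0.30 ± 0.07, adjusted p = 0.022) ended without gir replicate 1 (0.12, 0.068 and 0.075), gir replicate 2 (0.1, 0.088 and 0.083) or Col-7 replicate 1 (0.1, 0.063 and 0.06), that of UGT71C1 also without Col-7 replicate 2 (0.053), and those of UGT84A3 and UGT71C1 without Col-7 replicate 3 (0.097 and 0.055). In the joint fit and with no filter they were at 0.072 to 0.46, with the replicate block UGT84A3 was at 0.064 and UGT85A2 at 0.051, and UGT84A3 was at 0.062 after median centring and 0.076 after quantile normalization. Among 6 flavonoid genes DFR, dihydroflavonol reductase of anthocyanin synthesis, read 2592, 2717 and 2739 in gir roots, against 3784, 3765 and 3356 in Col-7 roots (-0.43 ± 0.08, adjusted p = 0.0086, and 0.17 in the joint fit). The chalcone isomerase-like gene CHIL was at 0.38 (adjusted p = 0.061). Of 11 glucosinolate genes AOP1 rose by 0.42 ± 0.08 (adjusted p = 0.015), with the call lost without gir replicate 1, gir replicate 2 or Col-7 replicate 2 (0.06, 0.054 and 0.051), in the joint fit (0.055) and with no filter (0.068).

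Of 7 tested defensin and pathogenesis-related genes 4 fell and 1 rose (71.4% called, against 11.9% over all probe sets), with 9 of 16 that have a probe set left out by the filter. LCR68, a defensin, read 5505, 4612 and 5007 in gir roots, against 7560, 7126 and 7509 in Col-7 roots (-0.55 ± 0.08, adjusted p = 0.0044). PDF2.1, next to it in the gene order, read 4360, 4298 and 4721 in gir roots, against 7003, 6365 and 5865 in Col-7 roots (-0.52 ± 0.09, adjusted p = 0.0067). PR-1-LIKE read 349, 371 and 391 in gir roots, against 624, 591 and 577 in Col-7 roots (-0.65 ± 0.07, adjusted p = 0.0016). These 3 calls held under each alternative that tested them. LCR69 changed by -0.27 ± 0.07 (adjusted p = 0.048) and lost its call without any 1 of the 6 arrays (0.053 to 0.15) and in 6 further alternatives (0.054 to 0.13). PDF2.5 rose by 0.40 ± 0.09 (adjusted p = 0.02), a call lost without gir replicate 1, gir replicate 3, Col-7 replicate 1 or Col-7 replicate 2 (0.073, 0.051, 0.061 and 0.062), in the joint fit (0.25) and with no filter (0.082). Of 13 heat shock and folding genes Hsp70-2, a cytosolic chaperone, fell (775, 751 and 802 in gir roots, against 1057, 1193 and 1058 in Col-7 roots, -0.49 ± 0.08, adjusted p = 0.0052) and kept its call under each alternative that tested it. Fes1A, a partner of Hsp70, was at -0.40 ± 0.08 (adjusted p = 0.016) and lost its call without gir replicate 1, gir replicate 2 or Col-7 replicate 2 (0.065, 0.066 and 0.051), in the joint fit (0.37) and with no filter (0.071).

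Of the 10 largest falls of named genes 8 were known by their locus alone, and so were 7 of the 10 largest rises, so most of the largest changes have no role in the tables used here. AT3G19430 read 52.6, 42.1 and 31.9 in gir roots, against 269, 286 and 378 in Col-7 roots (-2.30 ± 0.14, adjusted p = 0.00017), with all gir arrays below their 40th percentile, and the change was -1.52 with a pseudocount of 100 and -2.67 with one of 8. AT5G14650 read 237, 321 and 340 in gir roots, against 1340, 1176 and 866 in Col-7 roots (-1.82 ± 0.17, adjusted p = 0.00081). AT2G37870 was bright, at 2165, 1890 and 2623 in gir roots, against 5232, 5209 and 5341 in Col-7 roots (-1.24 ± 0.11, adjusted p = 0.00067). ATC, named for centroradialis and related to the floral repressor TERMINAL FLOWER 1, read 984, 842 and 1098 in gir roots, against 2577, 2213 and 2068 in Col-7 roots (-1.21 ± 0.12, adjusted p = 0.00085). The other falls were of AT5G54370, AT4G12490, AT3G44940 and AT1G52060 (-1.37 to -1.31) and of AT4G27400 (-1.06 ± 0.20, adjusted p = 0.013, and 0.072 with no filter), whose change was -0.64 with a pseudocount of 100. Like AT3G19430, both AT4G12490 and AT4G27400 had all gir arrays below their 40th percentile, so they could enter only as falls. The change of AT4G12490 was -0.95 at its smallest among the alternatives.

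The brightest of the largest rises was AT2G16005, at 8572, 7871 and 7157 in gir roots, against 3089, 3470 and 3603 in Col-7 roots (1.21 ± 0.09, adjusted p = 0.00039). AT1G26390 read 385, 269 and 309 in gir roots, against 92.0, 104 and 102 in Col-7 roots (1.46 ± 0.12, adjusted p = 0.00047), with all Col-7 arrays below their 40th percentile, so it could enter only as a rise. AT1G14220 read 1035, 1144 and 1154 in gir roots, against 349, 425 and 488 in Col-7 roots (1.36 ± 0.11, adjusted p = 0.00052). The other rises of this kind were of AT1G22160, AT5G23840, AT5G05250 and AT5G20790 (1.12 to 1.21). Except for AT4G27400, these 15 locus-only genes and ATC kept their calls under each alternative that tested them. The stricter filter left most of the 15 untested. For AT3G19430, AT4G12490 and AT1G26390, which passed the filter through the arrays of a single genotype, a kept call is no support. Over all locus-only genes tested, 309 of 6269 rose and 351 fell (10.5%), against 64 rises and 63 falls among 997 genes with a symbol (12.7%).

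Outside the classes and the largest changes, 3 further genes with a symbol kept their calls under each alternative that tested them, and they are named for that reason. CCL read 278, 349 and 247 in gir roots, against 111, 146 and 119 in Col-7 roots (1.06 ± 0.13, adjusted p = 0.0022). SIS, a salt-induced serine-rich protein gene, read 506, 508 and 508 in gir roots, against 257, 315 and 248 in Col-7 roots (0.84 ± 0.09, adjusted p = 0.0014). TRI, a tropinone reductase gene, read 417, 409 and 432 in gir roots, against 256, 278 and 268 in Col-7 roots (0.60 ± 0.07, adjusted p = 0.0016).

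**Figure D5:**
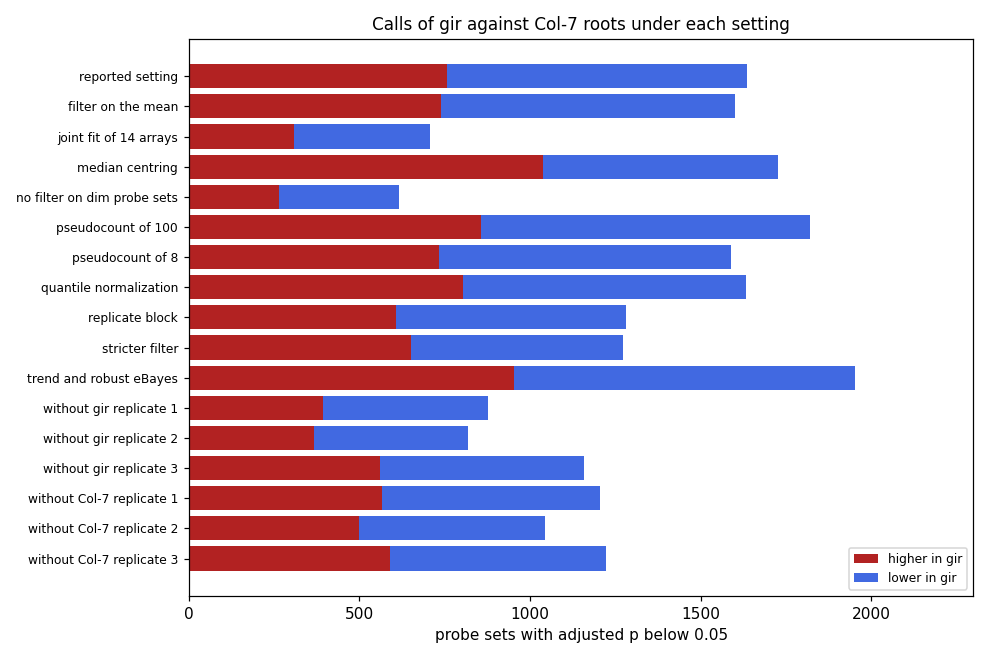
Number of probe sets past the threshold (horizontal axis) under the reported setting and each alternative (rows), split into those higher and those lower in gir roots. The count is 1636 as reported, 707 in the joint fit of 14 arrays, 616 with no filter on dim probe sets, and 819 to 1224 when 1 array is left out.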

How the data were processed

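Affymetrix ATH1 arrays gave the deposited intensities, made by the authors with MAS5 per the submitters' processing notes; its version and settings are not given in the sources used here. The 2% trimmed mean of every array was 500, so the deposited values were already scaled. Here they were tested as log2(intensity + 26), the deposited intensity being linear, after 64 of 22810 probe sets were left out as controls. A probe set was kept where 3 of the 6 root arrays or more reached their own 40th percentile (111 to 120), which left 13799. Arrays carry no read depth, and their number limits the precision. Root groups were compared with limma 3.58.1 in R 4.3.3 (lmFit and eBayes, Benjamini-Hochberg adjustment, 3 arrays each), after a check on simulated data. Figures were drawn with matplotlib 3.10.9 in Python 3.11.15.

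The platform annotation listed 14016 probe sets, 13513 with 1 gene and 503 with several, and 13436 were matched to the RefSeq table of TAIR10.1, giving 13286 genes (1535 with a symbol, 11751 by locus). Probe sets it does not list are unnamed here. A gene is given by its probe set of highest mean. Named genes were the 10 largest rises and 10 largest falls without overlap, up to 4 of smallest p in each class, and where fewer than 2 passed, the 2 of highest mean. Further class members and the genes outside classes were named after their values were seen. The members, classes and lists were chosen with earlier results of these data known. The 16 alternatives were another pseudocount (8 or 100), no filter, a stricter filter or one on the mean, median centring, quantile normalization, limma's trend and robust options, a replicate block, a joint fit of 14 arrays, and each array left out.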

Additional observations from a re-analysis of the deposited data

How the results depend on the processing

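With 1636 probe sets past the threshold as reported (758 higher and 878 lower in gir), the joint fit and the fit with no filter moved the count by over 1.5 times, as did leaving out any of 3 arrays. The joint fit of 14 arrays gave 707 (308 higher, 399 lower), 695 of them shared with the reported calls, and no filter on dim probe sets gave 616 of 22746 tested (264 higher, 352 lower), 505 of them shared. Median centring gave 1727 (1037 higher, 690 lower) and shifted the median of all probe sets by less than 0.05 on the log2 scale. Deviations of same-numbered gir and Col-7 arrays correlated at 0.0768, 0.00725 and 0.0166, and those of differently numbered arrays at -0.0907 to 0.0666. With 3 arrays in each group these values cannot settle whether the replicate numbers mark pairs. The replicate block gave 1281 calls (608 higher, 673 lower). Leaving out 1 array gave 819 to 1224 calls, 366 to 589 higher and 453 to 641 lower, with 819 without gir replicate 2, 878 without gir replicate 1 and 1043 without Col-7 replicate 2. The other 6 settings gave 1274 to 1952 calls.

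Of 148 called genes with a symbol or a class, or among the largest changes, 51 kept their calls under each alternative that tested them. Under all 6 that leave out 1 array, 81 did, and 0 turned direction in any alternative. The groups of all 1636 called probe sets did not overlap, so leaving out 1 array or changing the filter or pseudocount could not have turned a direction. The joint fit ended 75 of the calls, no filter 78, the replicate block 29, median centring 13 and quantile normalization 7. The stricter filter left 64 of the 148 genes untested and the filter on the mean left 6, so some of the 51, ICL and UPB1 among them, did not face every alternative. Of 1632 class counts recomputed, 1343 stayed within 1.5 times the reported count. That number includes counts reported as 0 that stayed at 0, so it does not measure how stable the classes with calls were. The cause of the lost calls was not tested.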
